A study of Mus musculus with 12 samples.

Results

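Cytosolic ribosomal protein genes encode the protein part of the ribosome: the small subunit reads the mRNA and the large subunit joins the amino acids. Each ribosome holds 1 copy of most of these proteins, and cells usually keep their mRNAs at similar, high levels. In mammals these mRNAs typically begin with a run of pyrimidines that ties their translation to growth signalling, many of the genes carry small nucleolar RNAs (snoRNAs, guides of rRNA modification) in their introns, and many have left processed copies elsewhere in the genome. Rows of the deposited gene tables were taken by name: Rpl or Rps followed by a digit, p or a, plus Fau, without names that hold -ps, the Rps6k kinases and Rpl10l. This rule used no measured value and gave 88 of 36883 rows in the mRNA table and 86 of 36883 rows in the long RNA table. Of the 88 rows, 49 were of the large subunit and 39 of the small subunit by name. The 39 include Rps19bp1, which encodes no ribosomal protein, and 3 rows that RefSeq classes as pseudogenes.

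The compared cells were Drosha-deficient and wild-type mouse embryonic stem (ES) cells, both cultured in serum with leukemia inhibitory factor. Drosha is the nuclear ribonuclease that cuts microRNA hairpins out of their primary transcripts; the sources used here do not give which part of its gene was disrupted or the number of clones. The labels of the methylation samples name wild-type AB1 cells (129Sv/Ev) and Drosha-deficient cells made from them; those of the RNA samples name no line. The study, whose title asks about Drosha and the upkeep of CG methylation, also holds methylation samples, short RNA and Dnmt1-deficient cells, which were not used here. Each genotype had 1 library of mRNA selected by its poly(A) tail and 1 library of long RNA, so no difference below has a replicate check and none was tested.

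Values are FPKM as deposited, which count fragments relative to the length of the transcript and the size of the library. The log2 difference is log2((Drosha-deficient FPKM + 1)/(wild-type FPKM + 1)), and a row passed with a level of 1 FPKM or more in either library and the status OK in the authors' table. A gene is called higher or lower by the size rule at 2-fold, a log2 difference of at least 1 in size. Drosha itself had 6.22 FPKM in Drosha-deficient and 42.1 FPKM in wild-type mRNA, and 4.34 and 21.2 FPKM in the same order in long RNA. By estimate from the lowest values, 1 fragment per kb of transcript was worth 0.0411 FPKM in Drosha-deficient and 0.0461 FPKM in wild-type mRNA, far under the level of nearly all ribosomal protein genes. All 8 ES cell markers passed in mRNA, at 94.0 to 700.4 FPKM in Drosha-deficient and 107 to 732 FPKM in wild-type cells, and none was past 2-fold. Of 10 fibroblast markers 8 passed in mRNA and 6 were lower, with summed levels of 195 FPKM in Drosha-deficient and 394 FPKM in wild-type cells; Col1a2, a chain of type I collagen, had 0.116 and 19.6 FPKM in that order. Of the neural markers 3 passed and 2 were higher, with summed levels of 19.9 FPKM in Drosha-deficient and 8.50 FPKM in wild-type mRNA. The part of these markers in the differences below was not tested.

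Taken as a whole, the ribosomal protein genes made up a smaller share of the signal in Drosha-deficient cells. They held 6.43% of the summed FPKM of protein-coding rows in Drosha-deficient mRNA, against 8.15% in wild-type mRNA. In long RNA the shares were 5.34% in Drosha-deficient and 7.06% in wild-type cells. In such bulk samples fewer cells of a type and less RNA per cell cannot be told apart. The median member had 124 FPKM in Drosha-deficient and 139 FPKM in wild-type mRNA. Of the 88 members 87 passed in mRNA, with a median log2 difference of -0.24, beside 0.01 over all 14752 rows that passed; 51 were below 0, beside 49.5% of all rows. In long RNA 85 of 86 passed, with a median of -0.33 beside -0.04 over all 13933 rows, and 55 were below 0, beside 53.4% of all rows. The rows that did not pass were Rpl22 in mRNA, whose status was failed, and Rpl3l in long RNA, whose status marks it as untested.

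The members did not move as a block. In mRNA 14 were higher and 13 were lower by the size rule, beside 8.64% and 7.93% of all rows, and 60 were neither. With processed copies summed, or without rows wider than the gene, the higher count in mRNA was 8, beside the same 8.64% of all rows. Lower calls fell with copies too: among 54 members with copies, 3 were higher and 4 lower in mRNA, instead of 9 and 8. Past 1.5-fold, 21 were higher and 20 lower, beside 19.0% and 19.4% of all rows. Their log2 differences had an SD of 1.14 across genes, compared with 0.82 over all rows and 0.85 over rows of at least 10 FPKM. Long RNA had 9 members higher and 13 lower, beside 6.26% and 6.89% of all rows, with an SD of 0.97 compared with 0.74 over all rows. Without rows wider than the gene, the higher count in long RNA was 5. With copies summed, 2 of 54 members with copies were higher and 5 lower in long RNA, instead of 5 and 8. Past 1.5-fold there, 14 were higher and 27 lower, beside 13.4% and 17.3% of all rows.

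Other gene groups that encode subunits of large complexes were narrower. The 74 genes of mitochondrial ribosomal proteins had a median of -0.31 in mRNA, with an SD of 0.52, none higher and 3 lower. The 38 proteasome subunit genes that passed had a median of -0.10 and an SD of 0.55, also with none higher and 3 lower. Past 2-fold in either direction in mRNA were 4.05% of the mitochondrial and 7.89% of the proteasome genes, beside 16.6% of all rows. The share was 44.6% for the processed copies described next. In long RNA the SDs of the mitochondrial and proteasome genes were 0.55 and 0.46. Rows named as processed copies of ribosomal protein genes were at least as wide as their parents: 175 of 226 passed in mRNA, with an SD of 1.26, 48 higher and 30 lower. The median of the mitochondrial group was as low as that of the cytosolic genes, while its spread was smaller.

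**Figure D1:**
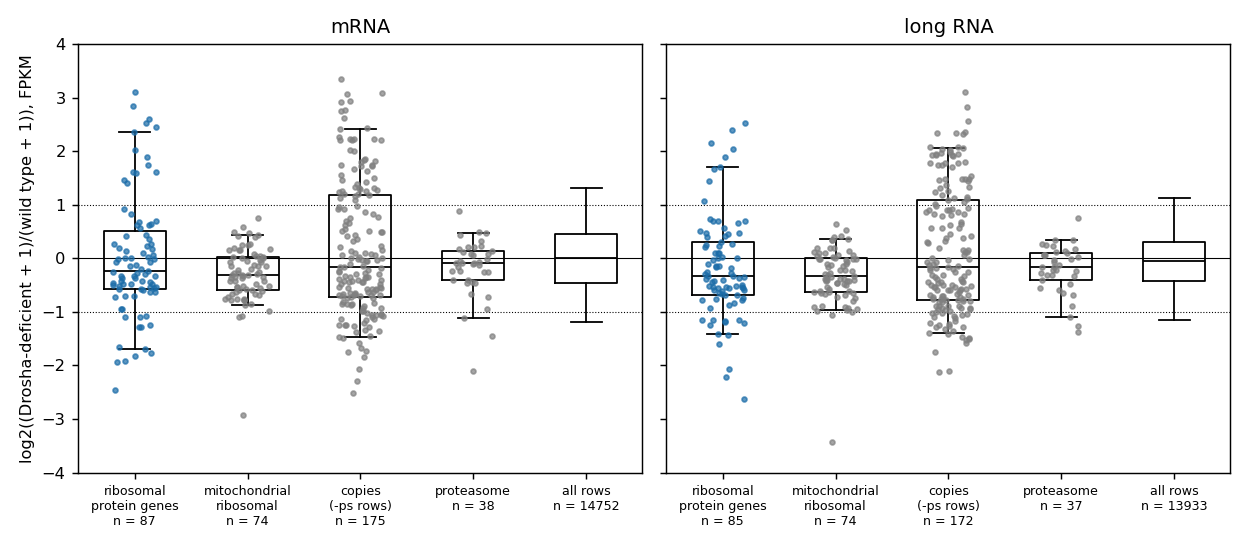
Log2 differences (Drosha-deficient over wild type, FPKM + 1) in mRNA on the left and long RNA on the right; points are genes, boxes span the quartiles with the median, whiskers the 5th to 95th percentile, dotted lines mark 2-fold. The 87 ribosomal protein genes in mRNA have an SD of 1.14, against 0.52 for the 74 mitochondrial ribosomal protein genes, and the copies are as wide.

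Members of lower level had a median above 0 and those of higher level one below 0. The 38 members with a mean of both mRNA libraries under 100 FPKM had a median log2 difference of 0.27, with 11 higher and 1 lower. The 49 with a mean of at least 100 FPKM had a median of -0.46, with 3 higher and 12 lower. Of all rows 8.64% were higher and 7.93% lower in mRNA, and 6.26% and 6.89% in long RNA. In long RNA the 47 members under 100 FPKM had a median of 0.10 (9 higher, 4 lower), and the 38 above it a median of -0.55 (none higher, 9 lower). The lowest level of a small subunit row in mRNA was 25.0 FPKM in Drosha-deficient cells (Rps12l2) and 8.58 FPKM in wild-type cells (Rps13), so these are different rows.

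**Figure D2:**
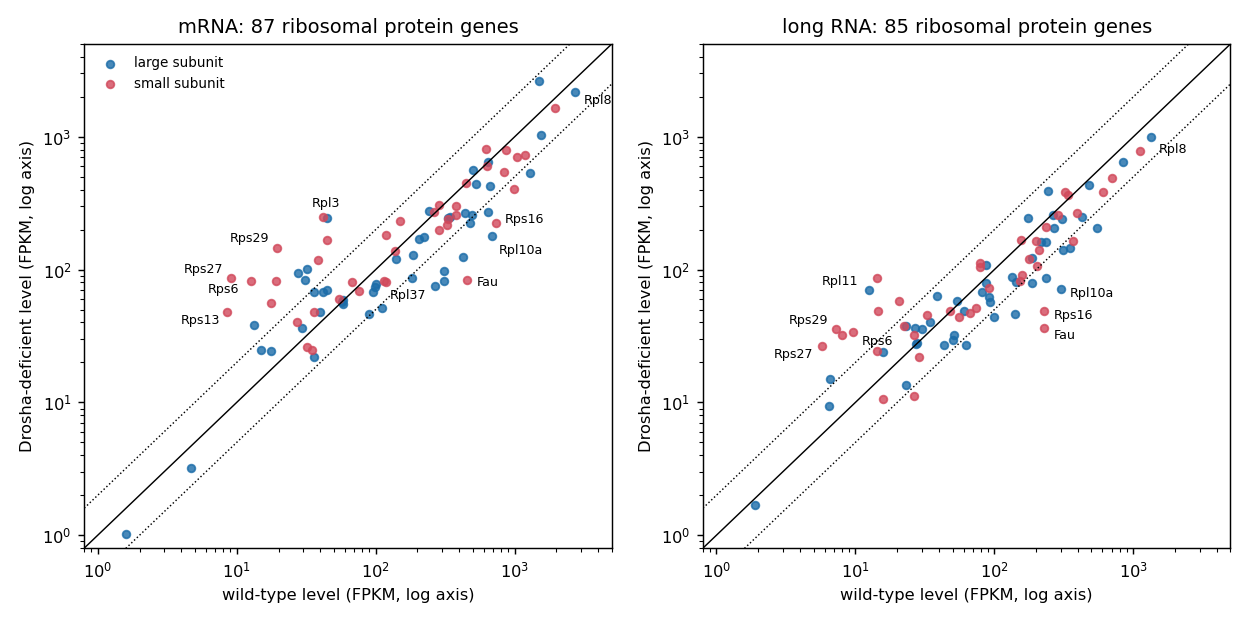
FPKM of each ribosomal protein gene in Drosha-deficient (vertical) against wild-type cells (horizontal), both on log axes, for mRNA (87 genes) and long RNA (85 genes); the solid line marks equal levels and the dotted lines 2-fold. Rps27, at 86.4 and 9.10 FPKM in mRNA, lies above the upper dotted line and Rps16, at 226 and 732 FPKM, under the lower one; wild-type level is part of the difference, so these positions are a description.

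The subunits differed in their medians. In mRNA the 48 large subunit rows that passed had a median of -0.35, with 5 higher and 10 lower. The 39 small subunit rows had one of -0.01, with 9 higher and 3 lower. The shares over all rows were 8.64% higher and 7.93% lower in mRNA, and 6.26% and 6.89% in long RNA. Without paralogs and Rps19bp1, 43 large subunit rows had a median of -0.37 and 35 small subunit rows one of -0.01. These 35 still include Rps3a2 and Rps12l1, which RefSeq classes as pseudogenes, and Rps12l2, which has no RefSeq entry. In long RNA the medians were -0.38 for 46 large subunit rows (2 higher, 9 lower) and -0.27 for 39 small subunit rows (7 higher, 4 lower). The summed FPKM of large over small subunit genes was 1.25 in Drosha-deficient and 1.33 in wild-type mRNA, and 1.17 and 1.24 in the same order in long RNA.

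Among the lower genes, Fau stood furthest down in both fractions. Fau (chromosome 19, 6057888 to 6059524, mm10/GRCm38) encodes a small subunit protein made as a fusion with a ubiquitin-like protein. It had 82.8 FPKM in Drosha-deficient and 458 FPKM in wild-type mRNA, 5.53-fold lower, and 36.1 and 229 FPKM in the same order in long RNA, 6.34-fold lower. It has no row of processed copies. Rps27a, made as a fusion with ubiquitin itself, was on the opposite side by its own row, which spans more than the gene. It had 119 FPKM in Drosha-deficient and 38.7 FPKM in wild-type mRNA, and 57.9 and 20.6 FPKM in long RNA. Summed with its copy, Rps27a was at -0.32 in mRNA and 0.08 in long RNA.

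By their own rows, lower genes of the large subunit included parts of both of its mobile stalks. Rpl10a, the protein of the L1 stalk that guides tRNAs out (chromosome 17, 28328471 to 28331032), had 179 FPKM in Drosha-deficient and 684 FPKM in wild-type mRNA, and 70.9 and 299 FPKM in long RNA. With its copies Rpl10a was at -0.55 in mRNA and -0.69 in long RNA, under 2-fold in both. Rpl12, at the base of the stalk that recruits elongation factors, had 124 FPKM in Drosha-deficient and 423 FPKM in wild-type mRNA. The row of Rpl12 spans more than the gene, and with copies it was at -1.14 in mRNA. Rplp0, Rplp1 and Rplp2 belong to the same stalk as Rpl12, and these did not share a size of difference. Rplp2 had 534 FPKM in Drosha-deficient and 1299 FPKM in wild-type mRNA (log2 difference -1.28), and -1.42 in long RNA. Rplp1 had 248 and 345 FPKM in mRNA in the same order (-0.47) and Rplp0 had 445 and 525 FPKM (-0.24); neither was past 2-fold in either fraction.

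Further large subunit genes lower in both fractions were Rpl37 (81.6 FPKM in Drosha-deficient and 311 FPKM in wild-type mRNA), Rpl31 near the exit of the peptide tunnel (75.7 and 269 FPKM), Rpl36 (51.3 and 111 FPKM) and Rpl38 (226 and 479 FPKM). Rpl38 is known for its role in skeletal patterning of mice; with its copies it was at -0.59 in mRNA and -0.41 in long RNA, under 2-fold in both. Rpl24 was read in mRNA in a row it shares with Zbtb11, at 98.1 FPKM in Drosha-deficient and 312 FPKM in wild-type cells. Its long RNA row carries a further gene name, falls outside the rule, and had 74.8 and 167 FPKM. Rpl28 was lower in mRNA (85.8 and 184 FPKM) and stayed under 2-fold in long RNA (32.2 and 51.4 FPKM); with copies it was at -0.44 in mRNA. Rpl18 was the reverse case, with log2 differences of -0.64 in mRNA and -1.16 in long RNA.

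On the small subunit side, Rps16, whose tail reaches the tRNA in the ribosome, had 226 FPKM in Drosha-deficient and 732 FPKM in wild-type mRNA, and 48.4 and 229 FPKM in long RNA. Rps21 had 406 FPKM in Drosha-deficient and 986 FPKM in wild-type mRNA, and was lower in long RNA too (165 and 366 FPKM). Rps12l2, a row with no RefSeq entry, was lower in long RNA only by the size rule, at 11.1 FPKM in Drosha-deficient and 26.5 FPKM in wild-type cells, with 25.0 and 35.1 FPKM in mRNA.

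Of the 14 members higher in mRNA, 9 were small subunit rows by name. Rps27 (chromosome 3, 90212725 to 90213615), a zinc-binding protein, was the furthest up in mRNA, at 86.4 FPKM in Drosha-deficient and 9.10 FPKM in wild-type cells, 9.49-fold higher. In long RNA it had 26.8 and 5.76 FPKM. Rps29, a zinc-binding protein as well (chromosome 12, 69157722 to 69159186), had 146 FPKM in Drosha-deficient and 19.5 FPKM in wild-type mRNA, and 35.6 and 7.27 FPKM in long RNA. Rps6, the target of the S6 kinases and a common readout of growth signalling, had 82.4 FPKM in Drosha-deficient and 12.7 FPKM in wild-type mRNA, and 33.6 and 9.61 FPKM in long RNA. These 3 genes were higher in both fractions by their own rows. Summed with their copies, Rps27 stayed higher in both (1.85 in mRNA and 1.23 in long RNA), Rps29 in mRNA (1.64, with 0.60 in long RNA) and Rps6 in neither (0.57 and 0.60).

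Of the large subunit, Rpl11 and Rpl35 were higher in both fractions, each by a row that spans more than the gene. Rpl11 joins the large subunit with Rpl5 and also binds Mdm2. Its row (chromosome 4, 136028265 to 136053428) had 94.4 FPKM in Drosha-deficient and 27.5 FPKM in wild-type mRNA, and 69.9 and 12.4 FPKM in long RNA. Rpl5, the partner of Rpl11, had log2 differences of -0.43 in mRNA and -0.60 in long RNA. Rpl35, at the tunnel exit, had 38.3 and 13.3 FPKM in mRNA in the same order of genotypes. Rps3a1 had 81.5 FPKM in Drosha-deficient and 19.2 FPKM in wild-type mRNA, and in long RNA 37.3 and 22.5 FPKM, not past 2-fold. Rps3a2, which RefSeq classes as a pseudogene although its name holds no -ps, had 249 FPKM in Drosha-deficient and 42.1 FPKM in wild-type mRNA. In long RNA it had 86.6 and 14.2 FPKM. Its difference of 2.52 was the highest of all members in long RNA. Rps3a1 and Rps3a2 are near-copies that can share reads, as can Rps27 and Rps27rt.

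**Figure D3:**
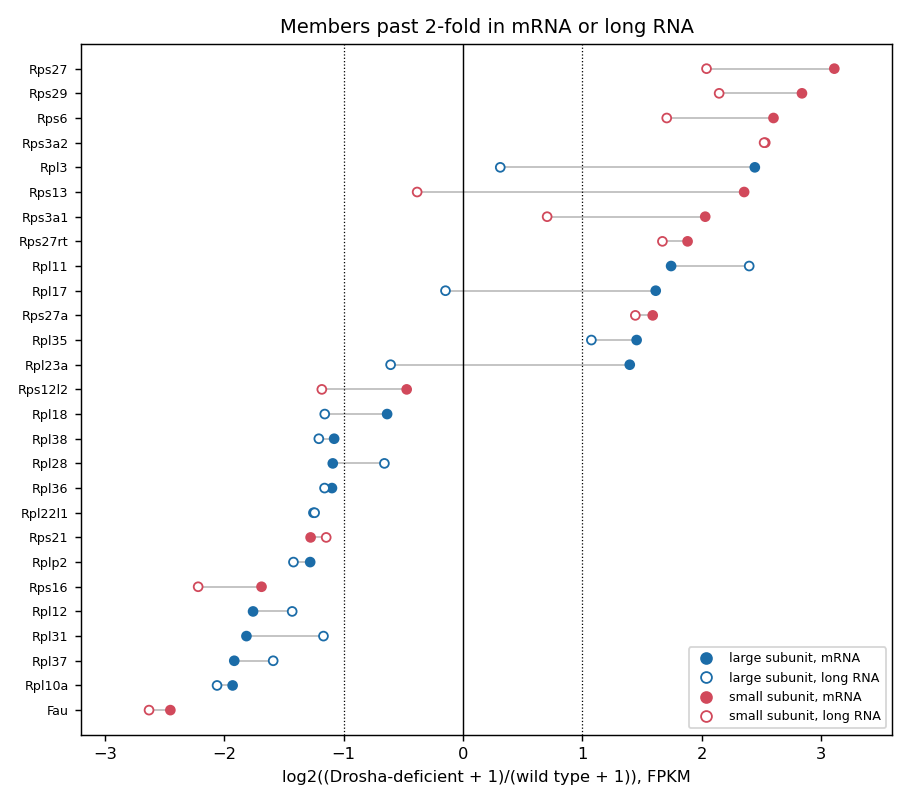
Log2 difference (Drosha-deficient over wild type) of 27 members past 2-fold in mRNA or long RNA that passed in both, ordered by mRNA: filled circles are mRNA, open circles long RNA, blue the large and red the small subunit, dotted lines 2-fold. The order runs from Rps27 at 3.11 to Fau at -2.45 in mRNA, and long lines mark genes such as Rps13 whose fractions differ.

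Of the genes of highest level, Rplp2 was past 2-fold and Rpl8, Rpl4 and Rpl41 were not. Rpl8, near the peptidyl transferase centre, had 2181 FPKM in Drosha-deficient and 2726 FPKM in wild-type mRNA. Rpl4, which lines the peptide tunnel, had 1036 and 1554 FPKM in the same order. Rpl41, which encodes a very short peptide, went the other way at 2653 FPKM in Drosha-deficient and 1496 FPKM in wild-type mRNA, a log2 difference of 0.83. Rpsa, the laminin receptor precursor of the small subunit, had 81.5 FPKM in Drosha-deficient and 114.6 FPKM in wild-type mRNA (-0.49), and was at -0.50 in long RNA. With its 9 copies it stood on the other side of 0 in both fractions, at 0.55 in mRNA (373 FPKM in Drosha-deficient and 254 FPKM in wild-type cells) and 0.33 in long RNA.

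Paralogs of ribosomal proteins did not follow 1 pattern against their main forms. Rpl22l1, the paralog of Rpl22, had 270 FPKM in Drosha-deficient and 645 FPKM in wild-type mRNA and was lower in both fractions, at -1.25 and -1.24. Rpl22 had 249 FPKM in Drosha-deficient and 429 FPKM in wild-type long RNA (-0.78), so both paralogs were below 0 there. Rpl39l, better known from testis, had 70.1 and 44.9 FPKM in mRNA (0.63), while Rpl39 had 266 and 441 FPKM (-0.73). Rps27l had 257 and 377 FPKM (-0.55), and Rps27rt, a row at an Rps27 retrogene, had 167 and 44.4 FPKM (1.88). Rps27 at 3.11 and Rps27l at -0.55 thus lay on opposite sides of 0 in mRNA. Rps4x and Rps4l both had 0.63 in mRNA, and RefSeq classes Rps4l as a transcribed pseudogene. Rpl7 (0.19) and Rpl7l1 (0.27), and Rpl36a (-0.54) and Rpl36al (-0.01), were not past 2-fold. Rpl3l, the muscle paralog of Rpl3, stood at 1.02 and 1.61 FPKM in mRNA. Rps19bp1 fits the name rule but encodes a binding partner of Rps19; it had 26.2 FPKM in Drosha-deficient and 32.2 FPKM in wild-type mRNA.

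Promoters of these genes were set beside the direction of their mRNA. RefSeq starts (build GRCm38.p6) matched 63 ribosomal protein genes of the rule, out of 27025 genes in the promoter table. A terminal oligopyrimidine start was taken as C at the first transcript base and C or T at bases 2 to 5, on the gene's strand and at any listed start. It was found in 15 of the 63 genes (23.8%), beside 3.01% of all genes. With the run allowed to begin anywhere from 3 bases before the start to base 5, it was found in 28 (44.4%), beside 15.3% of all genes. Windows around the start are shown for genes at both ends of the mRNA order, because such a start occurs at both. They are a selection: Rpl37, Rpl31 and Rpl12 among lower genes, and Rps3a1 and Rpl11 among higher ones, lack it at base 1. Capitals mark transcript bases 1 to 5.
Fau, log2 difference -2.45, chr19:6057927-6057966, plus strand: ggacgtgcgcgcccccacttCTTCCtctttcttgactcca
Rplp2, -1.28, chr7:141447631-141447670, plus strand: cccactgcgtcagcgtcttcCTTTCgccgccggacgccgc
Rps16, -1.69, chr7:28350669-28350708, plus strand: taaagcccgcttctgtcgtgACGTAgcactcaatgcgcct
Rps27, 3.11, chr3:90213629-90213668, minus strand: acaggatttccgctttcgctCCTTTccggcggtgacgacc
Rps6, 2.60, chr4:86857348-86857387, minus strand: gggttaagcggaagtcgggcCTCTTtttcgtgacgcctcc
Rpl35, 1.46, chr2:39005112-39005151, minus strand: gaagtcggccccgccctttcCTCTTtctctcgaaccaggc
Rps13, 2.36, chr7:116334171-116334210, minus strand: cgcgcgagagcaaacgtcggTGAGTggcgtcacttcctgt

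The pyrimidine run of Fau and Rplp2, which were lower, is of the same kind as that of Rps27, Rps6 and Rpl35, which were higher. At the listed starts of Rps16 and Rps13 these letters are not found. By direction in mRNA, such a start was found in 4 of 7 matched genes that were higher, 5 of 12 that were lower and 6 of 43 that were neither. The motif CCGGAA, looked for on both strands in the 250 bases before the start, was found in 26 of 63 genes (41.3%), beside 13.6% of all genes. It was found in 3 of the 7 higher, 4 of the 12 lower and 19 of the 43 other genes. TATAAA on the gene's strand, looked for where a TATA box usually lies, was found in 1 of 63 genes, beside 2.31% of all genes.

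Processed copies carry nearly the same sequence as the mRNA they came from, so reads can be split between a gene and its copies. The sources used here do not give how such reads were treated. Of the 88 members in mRNA, 55 had rows named as their copies, 222 rows in all. These copies summed to 12832 FPKM in Drosha-deficient and 14460 FPKM in wild-type cells, against 10874 and 14349 FPKM in the same order for the 55 genes themselves. In 32 of the 55 in Drosha-deficient cells, and in 31 in wild-type cells, the copies held more signal than the gene. A gene and its copies went in opposite directions in 25 of the 55 in mRNA and in 24 of 54 in long RNA.

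Summing each gene with its copies narrowed the spread. Adding further rows to a gene can do so with or without shared reads, and read sharing was not tested. Over the 54 such members that passed in mRNA, the SD of the log2 differences was 0.64 with copies and 1.16 without, and 7 instead of 17 were past 2-fold. In long RNA the SD was 0.58 with copies and 0.87 without, and 7 instead of 13 were past 2-fold. The sum lay closer to 0 than the gene alone in 33 of 54 members in mRNA and in 36 of 54 in long RNA. The members with no row named as their copy were as wide. In mRNA 33 of them had an SD of 1.13, with 5 higher and 5 lower. In long RNA 31 had an SD of 1.13, with 4 higher and 5 lower. That group is not free of near-copies, so it cannot show the spread without read sharing. It holds Rps3a1, Rps3a2 and Rps27rt, which can share reads, and Rpl7, which has 2 copies under older names.

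Single genes show how much the copies weigh. Rps13 had 48.1 FPKM in Drosha-deficient and 8.58 FPKM in wild-type mRNA, while its 6 copies held 767 and 819 FPKM in the same order. Its copy Rps13-ps1 alone (chromosome 8, 87047689 to 87048226) had 518 FPKM in Drosha-deficient and 772 FPKM in wild-type mRNA. With copies the log2 difference of Rps13 was -0.02, against 2.36 for its own row. Rpl3, near the peptidyl transferase centre, had 247 FPKM in Drosha-deficient and 44.4 FPKM in wild-type mRNA, and its 2 copies 455 and 673 FPKM, so that its difference was -0.03 with copies and 2.45 without. Rps27a was at -0.32 with its copy and at 1.59 without it. With copies Rps13 and Rpl3 thus lay near 0, and Rps27a on the other side of it. The log2 difference changed sign with the copies in 13 of 54 members in mRNA and in 12 of 54 in long RNA, most of them not past 2-fold by their own row.

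The same held in part for lower genes. Rpl10a had 2 copies with 756 FPKM in Drosha-deficient and 680 FPKM in wild-type mRNA, and its difference was -0.55 with them and -1.93 without. In long RNA it was at -0.69 with them. Rps16 was at -0.40 with its copies and at -1.69 without, and Rpl31, with 21 copy rows, at -0.70 and -1.82. In long RNA Rps16 and Rpl31 were at -0.83 and -0.25 with copies. Other genes stayed past 2-fold with their copies in mRNA: Rps27 at 1.85, Rps29 at 1.64 and Rpl35 at 1.46 were higher, and Rplp2 at -1.28, Rpl12 at -1.14 and Rpl36 at -1.12 were lower. With copies, Rpl27 was past 2-fold at -1.08, with its own row at -0.50. Fau, Rpl37, Rps21 and Rpl11 had no row of copies.

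**Figure D4:**
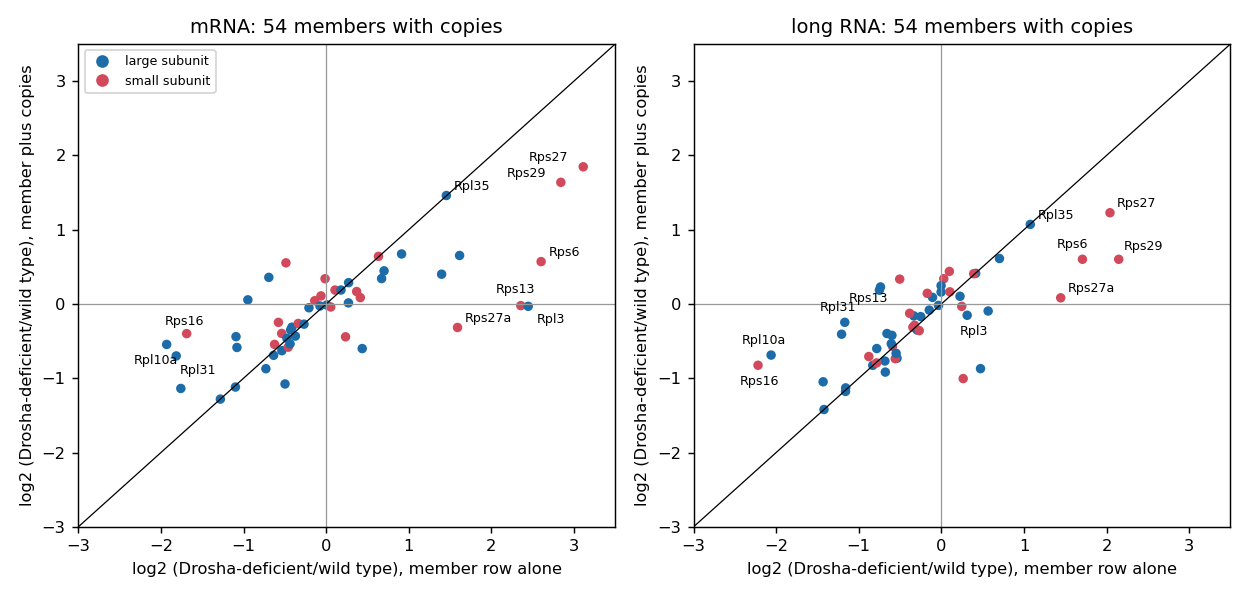
Log2 difference (Drosha-deficient over wild type) of a gene plus its processed copies (vertical) against that of the gene's row alone (horizontal), for 54 members with copies in mRNA and 54 in long RNA; the diagonal marks equal values. With copies, 33 of 54 genes in mRNA lie closer to 0: Rps13 and Rpl3 sit at -0.02 and -0.03 with copies in mRNA, while Rps27 stays at 1.85.

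The coordinates of a row could also span more than the gene. Of the members, 20 had rows over 2 times as wide as their RefSeq gene or with several names. Among them were Rpl31, Rpl12, Rpl24, Rpl11, Rpl3, Rps27a, Rps27rt, Rpl35 and Rpl23a, which were past 2-fold in mRNA. Fau, Rpl10a, Rps16, Rps27, Rps29 and Rps6 were not among them. The part of row width in these differences was not tested.

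Both fractions gave a similar order of genes. Of 84 members that passed in both, 27 were above 0 in both, 45 were below 0 in both and 12 had opposite signs (14.3%, beside 19.2% of all 13322 rows that passed in both). By the size rule 9 members were higher in both, 11 were lower in both, 6 were past 2-fold in mRNA only and 2 in long RNA only. In 66 of the 84 the log2 differences of both fractions lay within 0.5 of each other. Across these genes, which are not independent replicates, Pearson's r was 0.87 and Spearman's rho 0.88, beside an r of 0.77 over all rows.

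A few genes stood far from this pattern. In 6 members (7.14%, beside 3.27% of all rows) the differences of both fractions were 1 log2 unit or more apart, each time with mRNA above long RNA. Rps13 had 21.9 FPKM in Drosha-deficient and 28.8 FPKM in wild-type long RNA (-0.38), opposite in sign to its mRNA. Rpl23a, at the tunnel exit, had 83.8 FPKM in Drosha-deficient and 31.2 FPKM in wild-type mRNA (1.40). In long RNA it had 122 and 187 FPKM in the same order (-0.61). Rpl17, its neighbour there, had 101 FPKM in Drosha-deficient and 32.1 FPKM in wild-type mRNA (1.62), and in long RNA 435 and 481 FPKM (-0.15). Rpl3 had 108 FPKM in Drosha-deficient and 87.1 FPKM in wild-type long RNA (0.31). Rps3a1 and Rps27 were the other members of the 6.

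Of these 6 genes, 5 hold a snoRNA gene: Snord14a in Rps13, Snord42a, Snord4a and Snord42b in Rpl23a, Snord73a in Rps3a1, and 3 each in Rpl3 and Rpl17. Among the 84 members, 28 hold a snoRNA gene and 5 of these were 1 log2 unit or more apart, compared with 1 of the 56 others. The median size of the difference between fractions was 0.22 in genes with a snoRNA and 0.21 in those without. In long RNA none of the 28 was higher by the size rule and 4 were lower, while of 57 without a snoRNA 9 were higher and 9 lower. Of the 28 in mRNA, 5 were higher and 4 lower, and of 59 without, 9 were higher and 9 lower. The part of snoRNA genes in these values was not tested.

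**Figure D5:**
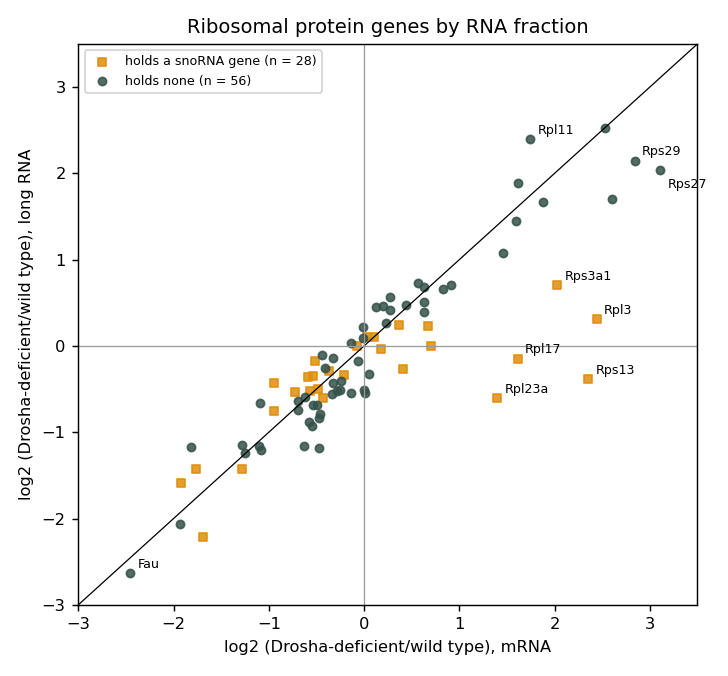
Log2 difference (Drosha-deficient over wild type) in long RNA (vertical) against mRNA (horizontal) for 84 ribosomal protein genes; orange squares are 28 genes that hold a snoRNA gene, dark circles the 56 others, and the diagonal marks equal values. Squares far under the diagonal are Rps13, Rpl3, Rpl23a, Rpl17 and Rps3a1.

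Genes that work with the ribosome were read from lists, beside 16.6% of all rows past 2-fold in mRNA and 13.1% in long RNA. Of 16 genes of elongation factors and other mRNAs with a pyrimidine start, none was higher and 2 were lower in mRNA, with a median of -0.12. These were Eef1g, a subunit of the factor that reloads Eef1a (106 FPKM in Drosha-deficient and 222 FPKM in wild-type cells), and Naca, which binds nascent chains at the tunnel exit (116 and 276 FPKM). In long RNA 2 of the 16 were lower as well, with a median of -0.29. Of 25 initiation factor genes 2 were higher and 1 was lower in mRNA, with a median of 0.12. Eif2s3x, a subunit of the factor that brings the initiator tRNA (7.29 and 2.85 FPKM), and the helicase gene Eif4a1 (159 and 75.1 FPKM) were higher. Eif3j1 was lower, at 5.68 FPKM in Drosha-deficient and 17.4 FPKM in wild-type mRNA. In long RNA 1 of 24 initiation factor genes was lower and none was higher.

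Genes of ribosome assembly had a median of 0.01 in mRNA, with 1 of 34 higher and 1 lower. The lower one was Fbl, the methyltransferase of rRNA that works with box C/D snoRNAs, at 54.0 FPKM in Drosha-deficient and 186 FPKM in wild-type mRNA, and 17.2 and 65.6 FPKM in long RNA. Utp20, of the small subunit processing machinery, was higher in mRNA, with a log2 difference of 1.02, and at 0.53 in long RNA. Of 14 genes of RNA polymerase I and its factors, 3 were higher and 1 lower in mRNA, with a median of 0.34, and none was past 2-fold in long RNA, also with a median of 0.34. Rrn3, the initiation factor of that polymerase, had 155 FPKM in Drosha-deficient and 70.3 FPKM in wild-type mRNA, Taf1c had 22.2 and 9.75 FPKM, and the shared subunit gene Polr1d was the lower one at 37.9 and 81.1 FPKM. Among 12 growth regulators of ribosome synthesis 1 was higher in each fraction and none was lower. This was Mycn, a Myc family factor, with 113 FPKM in Drosha-deficient and 51.5 FPKM in wild-type mRNA, and 68.3 and 32.9 FPKM in long RNA. Eif4ebp1, an inhibitor of cap-dependent translation, had 122 and 191 FPKM in mRNA.

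Ribosomal proteins that the name rule leaves out were read separately. Gnb2l1 (Rack1), a scaffold on the small subunit, had 3851 FPKM in Drosha-deficient and 4069 FPKM in wild-type mRNA, above every member. Rpl13a shares its row with Flt3l, at 690 FPKM in Drosha-deficient and 962 FPKM in wild-type mRNA (-0.48), and was at 0.06 in long RNA. Rpl10l, an autosomal retrogene of Rpl10 known from testis, had 98.5 FPKM in Drosha-deficient and 20.6 FPKM in wild-type mRNA. Rpl10 itself was at 45.9 and 89.6 FPKM there, a log2 difference of -0.95, but at 0.06 when summed with its 3 copies. In long RNA it was at -0.75, and at 0.19 with them.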

How the data were processed

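Per the labels' protocols, RNA of mouse ES cells was extracted with Trizol, poly(A) RNA was selected on oligo-dT, long RNA was separated from short RNA, and a small RNA kit was used for the libraries. The authors deposited FPKM tables from Cuffdiff. The tools, per the submitters' processing notes, were TopHat2 2.0.10, Cufflinks 2.1.1 and bcl2fastq 1.8.4, with mm10/GRCm38. Annotation, library scaling, strand and multi-mapped reads were not given in the sources used here. Only by elimination was the long RNA table taken as that of samples titled total RNA. Its names differ from those of the mRNA table in 429 rows. The tables were normalized separately, so no level is compared between them.

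Differences used a pseudocount of 1 FPKM, which understates differences of low genes. Rows needed the status OK and 1 FPKM in at least 1 library, and calls used 2-fold or 1.5-fold. FPKM are not counts and each genotype had 1 library per fraction, so no test was run; differences compare libraries. Named members were those past 2-fold in either fraction, the 6 highest and 6 lowest, the 5 of highest wild-type mRNA, the P-stalk genes, Rpsa, Fau, Rps27a, paralog pairs, Rps19bp1, and up to 2 pathway genes in each direction; Rpl5, Rpl27, Rpl10 and the genes outside the rule were named after their values were seen. A few genes the rule names are not reported here. Copies were rows with a member's name and -ps. RefSeq tables gave gene classes, widths, snoRNAs and promoters; 87 of 88 members had an entry. Members and lists were chosen with earlier results of these data known. Scripts (Python 3.11.15, pandas 2.3.3, numpy 2.4.6, matplotlib 3.10.9) were tested on simulated data. Alternatives changed the pseudocount, the minimum, the centring, the copies and the members.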

Additional observations from a re-analysis of the deposited data

Results flagged for a closer look

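For 3 genes that were past 2-fold in mRNA the log2 difference (Drosha-deficient over wild type) had the opposite sign in long RNA. Rpl23a was at 1.40 in mRNA and -0.61 in long RNA. Rpl17 was at 1.62 in mRNA and -0.15 in long RNA. Rps13 was at 2.36 in mRNA and -0.38 in long RNA. Each value comes from 1 library per genotype, and the difference between the fractions was not tested. All 3 genes hold snoRNA genes and have rows of processed copies; with copies their mRNA differences were 0.40 for Rpl23a, 0.65 for Rpl17 and -0.02 for Rps13.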

How the results depend on the processing

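The median over the members stayed below 0 under the 10 alternatives in each fraction, at -0.20 to -0.29 in mRNA and -0.25 to -0.36 in long RNA; the shares of summed FPKM kept their direction under 3 alternatives and the subunit medians under 2 (core members only, and a pseudocount of 5 FPKM). Among the 54 members with copies, the mRNA median was -0.05 with copies summed and -0.17 without. In long RNA it was -0.21 with copies and -0.33 without. Counts past 2-fold moved more with the choice of rows than with scale. The count higher in mRNA, 14, was 8 with copies summed (8 also with copies under older names), 8 without wide or multi-name rows, and 5 among the members without copies. The count lower in mRNA was 5 among members without copies, and past 1.5-fold the counts there were 8 higher and 7 lower. Without wide rows, 13 were higher past 1.5-fold in mRNA. In long RNA the counts among members without copies were 4 higher and 5 lower past 2-fold, and 8 higher and 7 lower past 1.5-fold; without wide rows they were 5 and 8 higher. These sets hold fewer genes, 33 and 31 without copies and 67 without wide rows. With copies summed, Rps27a (-0.32) fell below 0 in mRNA and Rps13 (-0.022) and Rpl3 (-0.032) lay near 0; Rpsa, not called, went above 0 (0.55 in mRNA and 0.33 in long RNA). Of 93 single-gene results 49 were past 2-fold. Only those of members with copies, 17 in mRNA and 13 in long RNA, could change with copies summed. Of these, 18 were then no longer past 2-fold. With a pseudocount of 5 FPKM, 2 of the 49 were not past 2-fold. The choices about older names, wide rows, pseudogenes and members without copies were added after seeing the data. No paired analysis was possible because each genotype had 1 library per fraction and the labels give no replicate numbers. With 1 library per genotype, the spread between cultures or clones is unknown.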
